A study of Mus musculus with 6 samples.

Results

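The response of wild-type (WT) thymic stroma to RANKL was measured by RNA sequencing in 3 of the 6 libraries of a study of *Jmjd6*. The members are the gene rows with a mean of at least 0.1 FPKM over the 3 WT libraries, which are 16049 of the 22513 rows. FPKM is a fragment count scaled to the length of the transcript and to the mapped fragments of the library. Rows were not chosen by a test of the response. The mean covers 2 libraries with RANKL and 1 without. Rows high only with RANKL thus pass at lower levels than rows high only without it. The lobes were C57BL/6 fetal thymus organ cultures (FTOC) that had been kept for 4 days in 2-deoxyguanosine (2-DG). This treatment depletes haematopoietic cells and leaves epithelium and other stroma. Macrophage marker genes were still expressed, with sums of 442 FPKM in the unstimulated WT library and 314 and 503 FPKM with RANKL. The unstimulated WT group is 1 library. The stimulated WT group is 2 libraries from lobes given RANKL at 1 µg/ml for 4 days. The other 3 libraries, 1 unstimulated and 2 with RANKL, are of *Jmjd6*-/- lobes, which lack the lysyl hydroxylase Jmjd6, and serve here only for comparison. The labels call the repeated libraries technical duplicates and the methods call them samples. The p-values thus rest on the spread between these 2 libraries, which the test pools across rows, and may hold no spread between cultures. The unstimulated value has no replicate.

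RANKL is the ligand of RANK (*Tnfrsf11a*), a receptor of the tumour necrosis factor receptor family on medullary thymic epithelial cells (mTECs). Through TRAF adaptors RANK activates canonical and alternative NF-κB, and the signal matures mTECs to cells that carry CD80 and MHC class II and that express *Aire*. Mature mTECs transcribe genes of many peripheral tissues, so that developing T cells meet these proteins in the thymus.

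No file gave the depth, and it was read from the FPKM that a single fragment adds in weakly expressed genes. It came to about 31700000 fragments for the unstimulated library, 28900000 fragments for RANKL replicate 1 and 16600000 fragments for replicate 2. Counting error is therefore smaller in the unstimulated library than in replicate 2. Pearson's r between the stimulated libraries was 0.972 across the log2 values of the 12664 rows with a WT mean of at least 1 FPKM, with a median absolute difference of 0.28, against 0.08 between the *Jmjd6*-/- RANKL libraries. Replicate 2 differed from replicate 1 by a trend with GC content, from -0.4 in the group of rows with the lowest GC content to 0.27 in that with the highest, and replicate 1 differed from the unstimulated library by -0.01 to -0.1. Genes of the Y chromosome and *Xist* differed between the libraries too. *Xist* had 36.8 FPKM unstimulated and 71.8 and 30.9 FPKM with RANKL, and *Ddx3y* 29.1, 17.3 and 11.8 FPKM. The part of these differences in the results below was not tested, beyond the fit without the GC trend. The deleted gene of the study, *Jmjd6*, had 26.3, 25.9 and 32.5 FPKM in the WT libraries and 1.32, 1.96 and 1.78 FPKM in the *Jmjd6*-/- libraries. In bulk RNA a change in the number of cells of a type and a change in the RNA of each cell cannot be told apart.

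Promoters of genes that responded are shown first, because RANK signals through NF-κB. The motif searched, a form of the NF-κB motif, was GGGA followed by any 2 bases and TTCC, on either strand, within 250 bases before and 50 bases after the RefSeq start site (GRCm38.p6). It was in 26 of the 732 genes called higher that had a promoter sequence (3.55%), in 1 of 37 called lower (2.7%) and in 223 of all 12445 tested rows with a promoter (1.79%). These shares describe letters, not binding. The 5 stretches below belong to genes that rose with RANKL and whose roles are described further on. They were picked from the 26 after their values were seen, are written 5′ to 3′ on the strand of the gene, and carry the matched letters in capitals with up to 60 bases on each side before the start site. In *Madcam1*, *Ltb* and *Krt14* the match is on the other strand, and in *Ccl1* a match on each strand overlaps by all but 1 base.
Cxcl10 (chr5:92348979-92349108, minus strand): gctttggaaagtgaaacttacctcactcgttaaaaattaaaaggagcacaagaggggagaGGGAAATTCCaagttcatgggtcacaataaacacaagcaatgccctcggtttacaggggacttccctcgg
Ccl1 (chr11:82179938-82180062, minus strand): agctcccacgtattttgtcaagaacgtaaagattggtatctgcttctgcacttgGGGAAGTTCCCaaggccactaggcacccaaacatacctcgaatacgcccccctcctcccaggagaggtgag
Madcam1 (chr10:79664429-79664558, plus strand): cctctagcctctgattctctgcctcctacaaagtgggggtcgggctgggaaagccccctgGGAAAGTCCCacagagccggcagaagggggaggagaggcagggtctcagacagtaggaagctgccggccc
Ltb (chr17:35194360-35194489, plus strand): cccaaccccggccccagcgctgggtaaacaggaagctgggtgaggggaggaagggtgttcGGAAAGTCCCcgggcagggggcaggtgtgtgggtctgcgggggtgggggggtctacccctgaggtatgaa
Krt14 (chr11:100206068-100206197, minus strand): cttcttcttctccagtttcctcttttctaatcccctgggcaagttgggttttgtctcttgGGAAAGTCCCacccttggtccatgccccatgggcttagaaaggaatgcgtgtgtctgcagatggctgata

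The rows that passed the test were mostly genes that were low without RANKL and rose with it. By limma on log2(FPKM + 0.1), 979 rows were higher with RANKL at an adjusted p under 0.05 (6.1% of the rows tested) and 49 were lower (0.305%). Together these are 6.41% of the rows. After a correction of each library for GC content and length, a fit added after the data were seen, the numbers were 1002 and 289. The genes that rose had a median of 0.224 FPKM in the unstimulated library and 3.34 FPKM with RANKL. Of the 979, 661 were under 1 FPKM without RANKL, as were 3859 of all 16049 rows tested, and 161 were listed at 0. The genes that fell had medians of 7.18 and 2.02 FPKM. The median log2 difference over all 16049 rows was -0.02. A difference on this scale understates the change of low genes, and for genes listed at 0 it depends on the 0.1 added. Without a test, 1601 rows (9.98%) were at least 2-fold higher in both RANKL libraries and 131 (0.816%) at least 2-fold lower, and 948 of the 979 and 45 of the 49 were among them. An exact permutation test of 2 libraries against 1 gives no two-sided p under 0.667, so that the p-values here rest on the spread that limma pools across rows. With no filter on low values 2 rows were called higher and 131 lower. Without RANKL replicate 1 the numbers were 2279 and 2198, and without replicate 2 they were 672 and 198, in fits that took the spread from the remaining libraries of both genotypes.

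More genes were detected with RANKL, although both RANKL libraries were shallower. The unstimulated library had 12190 rows with at least 1 FPKM, and the RANKL libraries had 12743 and 12744. At 0.1 FPKM the numbers were 15022, 16163 and 16248. The 979 genes that rose made up 0.863% of all FPKM without RANKL and 3.21% and 3.35% with it. Of these genes, 741 differed by more than 2 on the log2 scale, 140 by more than 4 and 18 by more than 6.

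**Figure D1:**
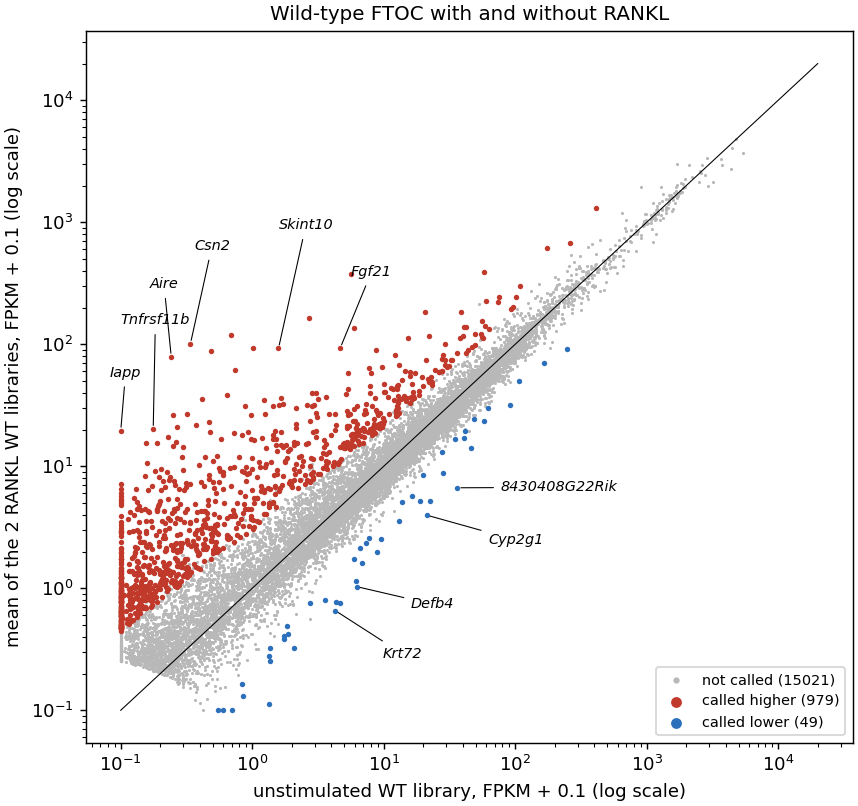
FPKM + 0.1 of each of the 16049 rows in the unstimulated WT library (x axis, log scale) against the mean of the 2 WT RANKL libraries (y axis, log scale), with the line of equal values. The 979 rows called higher (red) lie mostly at the left, where the unstimulated value is under 1 FPKM, and the 49 called lower (blue) lie below the line.

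The largest rise was that of *Aire*, the autoimmune regulator that switches on tissue antigens in mTECs. *Aire* (XLOC_002015, chr10:78030022-78043610 on the minus strand of mm10) had 0.142 FPKM without RANKL and 78.0 and 79.7 FPKM with it. The replicates were nearly the same and the log2 difference was 8.35 (SE 0.32, adjusted p = 1.08e-09 from limma). Its entry overlaps that of *Dnmt3l*, a cofactor of DNA methyltransferases on the same stretch of chromosome 10, which was listed at 0 and then had 1.45 and 1.63 FPKM. The library kit as described keeps no strand, so reads of neighbours that overlap cannot be assigned with certainty. *Icosl*, the ligand of the T cell costimulator ICOS, is the next row on that stretch, with 1.55 FPKM unstimulated and 39.2 and 33.4 FPKM with RANKL.

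The other genes among the 15 largest rises, all with a WT mean of at least 1 FPKM, are known from many tissues. *Csn2*, which encodes the milk protein β-casein, had 0.239 FPKM unstimulated and 102.0 and 99.3 FPKM with RANKL (log2 difference 8.22, SE 0.30, adjusted p = 1.08e-09 from limma). *Iapp*, which encodes the islet hormone amylin, was listed at 0 and reached 18.5 and 20.4 FPKM. *Calcb*, which encodes a calcitonin gene-related peptide of sensory neurons, had 0.388, 73.3 and 103.2 FPKM. *Cdx1*, a homeobox factor of the intestine, had 0.15, 23.5 and 28.5 FPKM, and *Insm1*, a zinc finger factor of neuroendocrine cells, had 0.315, 39.7 and 30.7 FPKM. Both transcription factors were thus near 0 in the unstimulated library and abundant in both RANKL libraries. *S100a8*, a calcium-binding alarmin of neutrophils and stressed epithelium, had 0.586, 98.2 and 141.0 FPKM. *Cyp26a1*, which breaks down retinoic acid, had 0.0557, 12.8 and 18.2 FPKM, and *Tff3*, a trefoil peptide of goblet cells, was listed at 0 and then had 5.90 and 8.22 FPKM. *Plb1*, a phospholipase of the gut brush border, had 0.636, 52.6 and 71.0 FPKM. *Utf1*, a chromatin factor of pluripotent cells, had 0.168, 18.9 and 23.3 FPKM. *Pglyrp2*, an amidase that cleaves bacterial peptidoglycan, had 0.13, 22.2 and 12.4 FPKM, and *Serpinb12*, an epithelial serpin, had 0.219, 34.5 and 19.1 FPKM. In *Csn2*, *Insm1*, *Pglyrp2*, *Serpinb12* and *Tnfrsf11b* replicate 1 was the higher of the RANKL libraries. *1100001G20Rik* was the most uneven of the 15, with 0.914, 60.4 and 125.4 FPKM. The log2 differences of all 15 ran from 6.14 to 8.35. In each the RANKL libraries lay above the unstimulated one, which the choice of the 15 by these values nearly fixes.

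**Figure D2:**
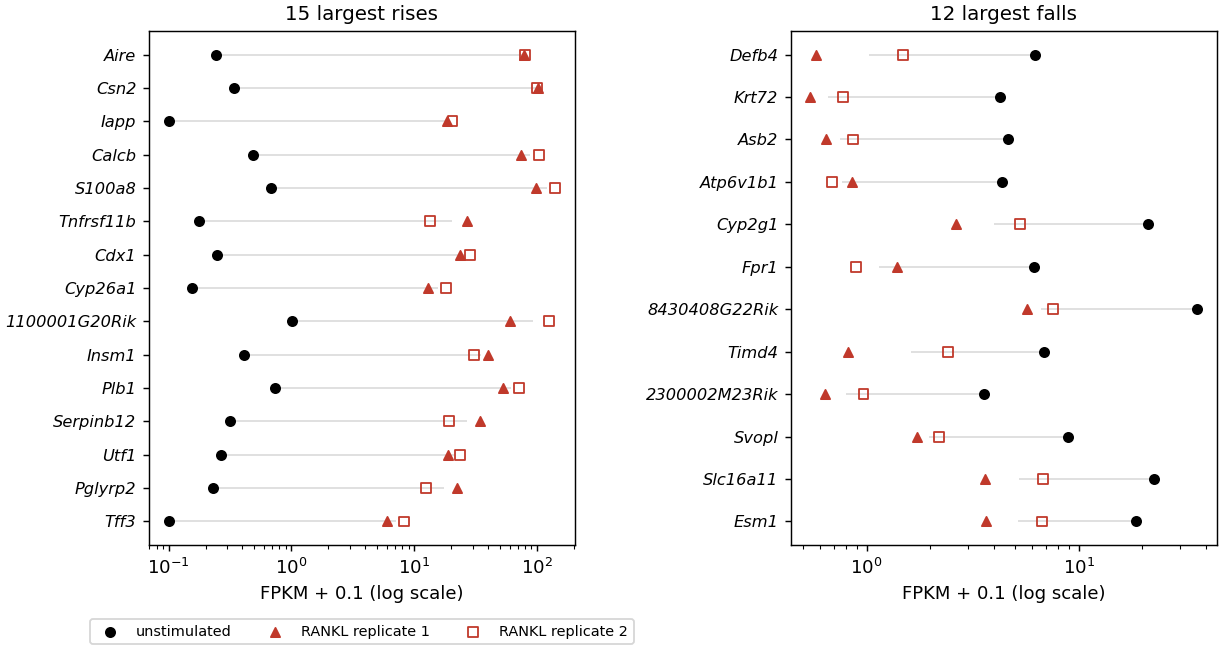
FPKM + 0.1 (x axis, log scale) of the 15 largest rises and 12 largest falls in the unstimulated library (black circles) and RANKL replicates 1 (triangles) and 2 (squares), with a grey line from the unstimulated value to the RANKL mean. In the left panel *Aire* and *Csn2* have nearly equal replicates, and in the right panel the RANKL values of *Defb4* (0.475 and 1.39 FPKM) and *Timd4* (0.714 and 2.32 FPKM) lie apart.

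The receptor of the ligand itself was induced. *Tnfrsf11a*, which encodes RANK, had 1.84 FPKM unstimulated and 14.9 and 12.6 FPKM with RANKL (log2 difference 2.83, SE 0.35, adjusted p = 9.98e-05 from limma). *Tnfrsf11b*, which encodes the soluble decoy receptor osteoprotegerin, rose further, from 0.0766 to 26.8 and 13.4 FPKM (log2 difference 6.75, SE 0.46, adjusted p = 3.28e-07 from limma). *Cd40*, the receptor through which T cells also mature mTECs, had 11.3, 41.2 and 45.8 FPKM (log2 difference 1.93, SE 0.28, adjusted p = 0.000453 from limma). *Traf1*, an adaptor that modulates signals of these receptors, had 0.494, 6.19 and 6.63 FPKM (log2 difference 3.45). These 4 were the members called higher among 15 genes of the RANK family receptors and adaptors (26.7%, against 6.1% of all rows), and none was called lower. *Tnfsf11*, the ligand's own gene, had 0.0474, 0.500 and 0.509 FPKM and missed the threshold (log2 difference 2.04, SE 0.58, adjusted p = 0.0523 from limma). The other adaptors and kinases were not called, among them *Traf6* at 15.1, 21.4 and 16.9 FPKM and *Map3k14*, the NF-κB-inducing kinase, at 28.7, 19.7 and 26.5 FPKM. The median over the list was 0.08, against -0.02 over all rows tested.

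Of 18 NF-κB subunits and feedback regulators 3 were called higher (16.7%, against 6.1% of all rows) and none lower, with a list median of 0.20 against -0.02 over all rows. They were *Nfkbie*, an inhibitor of NF-κB, with 12.6 FPKM unstimulated and 30.2 and 38.4 FPKM with RANKL (log2 difference 1.42, SE 0.29, adjusted p = 0.00709 from limma), *Tnip1*, a partner of the A20 ubiquitin editor, with 21.8, 45.0 and 59.4 FPKM, and *Bcl3*, a nuclear IκB protein, with 9.04, 16.7 and 27.8 FPKM. The subunits themselves did not pass. *Nfkb1* had 79.2, 99.3 and 80.1 FPKM and *Rela* 25.5, 25.3 and 34.5 FPKM. The subunits of the alternative arm had values above the unstimulated one in both RANKL libraries, with *Nfkb2* at 41.1, 65.6 and 76.1 FPKM (adjusted p = 0.142 from limma) and *Relb* at 27.8, 45.3 and 69.4 FPKM (adjusted p = 0.0725 from limma). *Nfkbia*, which encodes IκBα, stood just outside the threshold at 70.4, 135.0 and 141.0 FPKM (adjusted p = 0.0537 from limma).

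Among 18 genes of Aire, its partners and medullary transcription factors, 4 were called higher and none lower, against 6.1% and 0.305% of all rows. The list median was 0.23, against -0.02 over all rows. Beside *Aire* the called genes were *Fezf2*, a second regulator of tissue antigens in mTECs, with 1.54 FPKM unstimulated and 16.9 and 21.1 FPKM with RANKL (log2 difference 3.53, SE 0.35, adjusted p = 1.06e-05 from limma), *Spib*, an Ets factor of mTECs and microfold cells, with 7.95, 67.8 and 48.0 FPKM, and *Irf4*, an interferon regulatory factor of lymphocytes, with 0.0964, 5.87 and 3.81 FPKM. None of the partners of Aire in the list was called. *Chd4*, a chromatin remodeller, had 45.1, 43.5 and 42.6 FPKM. *Grhl3*, a factor of epidermal differentiation, had the lowest log2 difference of the list, -0.94 (SE 0.36, adjusted p = 0.195 from limma).

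Costimulation was represented by *Cd80* and others. The test called a rise in 6 of 13 tested genes of costimulation and checkpoints and a fall in none, against 6.1% and 0.305% of all rows. The list median was 0.74, against -0.02 over all rows. *Cd80*, the CD28 ligand that marks mature mTECs, had 1.02 FPKM unstimulated and 11.6 and 9.96 FPKM with RANKL (log2 difference 3.28, SE 0.38, adjusted p = 4.95e-05 from limma). *Cd70*, the ligand of CD27, was listed at 0 and then had 1.97 and 3.18 FPKM. *Icosl* (log2 difference 4.46), *Tnfsf9*, the ligand of 4-1BB (2.90), *Fas*, the death receptor (2.64), and *Pdcd1lg2*, which encodes PD-L2 (2.50), also rose. *Cd86*, the other CD28 ligand, was not called and had 8.13, 4.73 and 6.76 FPKM, and *Cd274*, which encodes PD-L1, had 117, 109 and 111 FPKM. The ligands of CD28 thus stood on different sides of the unstimulated level, and the difference between them was not tested.

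The genes of antigen presentation that passed the test were peptide editors, proteasome subunits and a transactivator. In MHC class II presentation 3 of 14 genes were called higher and none lower, against 6.1% and 0.305% of all rows. The class I count below stands against the same shares. *H2-DMb2*, a chain of the peptide editor H2-DM, had 5.29 FPKM unstimulated and 41.4 and 44.5 FPKM with RANKL (log2 difference 3.00, SE 0.29, adjusted p = 8.96e-06 from limma). *H2-Oa* and *H2-Ob*, the chains of its inhibitor H2-O, had 7.28, 24.1 and 30.5 FPKM and 0.0554, 0.727 and 0.797 FPKM. *Ciita*, the transactivator of class II genes, had 20.03, 22.4 and 17.7 FPKM and was not called, and neither were *H2-Aa* (log2 difference 0.60) and *H2-Ab1* (0.20). In MHC class I and the immunoproteasome 3 of 13 were called higher, namely *Psmb8*, an immunoproteasome subunit (15.7, 44.2 and 65.8 FPKM), *Nlrc5*, the transactivator of class I genes (2.14, 6.82 and 6.16 FPKM), and *Psme1*, a proteasome activator (22.97, 43.1 and 65.3 FPKM). *H2-K1* had 653 FPKM unstimulated, and its log2 difference of 0.86 missed the threshold (SE 0.39, adjusted p = 0.319 from limma).

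Chemokines rose in 11 of 26 genes and fell in none, against 6.1% and 0.305% of all rows. *Ccl19*, a ligand of CCR7 that draws thymocytes into the medulla, had 2.94 FPKM unstimulated and 32.2 and 47.3 FPKM with RANKL (log2 difference 3.69, SE 0.32, adjusted p = 3.7e-06 from limma). Its symbol stands on a pair of entries, and only the one with the higher WT mean is given. *Cxcl9*, a ligand of CXCR3, had 0.136, 8.58 and 7.70 FPKM, *Ccl20*, the ligand of CCR6, had 0.0534, 5.62 and 3.16 FPKM, and *Ccl22*, a ligand of CCR4, had 0.352, 4.08 and 3.19 FPKM. *Cxcl10*, an interferon-inducible ligand of CXCR3 and the first promoter shown above, was by far the most abundant of those that rose, with 57.8, 329 and 450 FPKM (log2 difference 2.73, SE 0.31, adjusted p = 4.17e-05 from limma). The most abundant chemokines of the list lay lower with RANKL in both libraries without being called. *Cxcl12*, the ligand of CXCR4, had 1110, 709 and 674 FPKM (log2 difference -0.68, adjusted p = 0.462 from limma) and *Ccl25*, a ligand of CCR9 that attracts thymocyte progenitors, had 2929, 1748 and 2230 FPKM (log2 difference -0.57, adjusted p = 0.765 from limma). Outside the list, *Ccl1*, a ligand of CCR8, was listed at 0 and then had 1.17 and 1.54 FPKM. *Madcam1*, the mucosal addressin for lymphocyte homing, had 0.0636, 1.92 and 2.53 FPKM. *Ltb*, which encodes lymphotoxin β, had 0.0497, 0.916 and 0.915 FPKM (log2 difference 2.76). These 3 were chosen for their promoters after their values were seen.

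**Figure D3:**
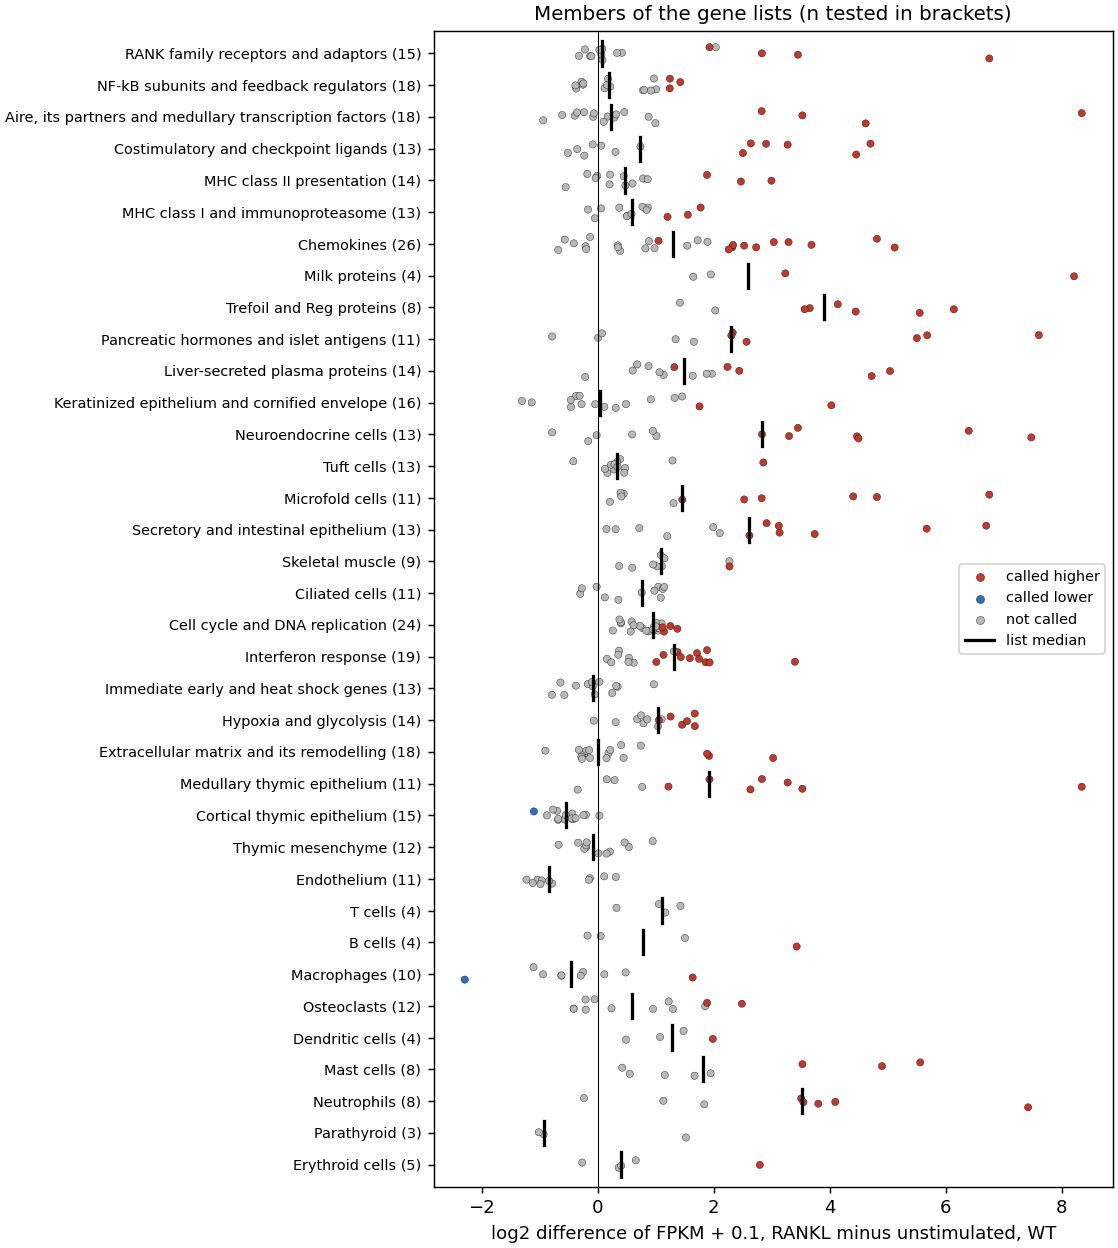
Log2 difference of FPKM + 0.1 between the WT RANKL libraries and the unstimulated library (x axis) for each tested member of 36 gene lists (rows, with the number tested), with called members in red or blue and the median as a black bar. *Aire*, in the list of its partners and in that of medullary epithelium, lies furthest to the right at 8.35, followed by *Csn2* in the milk list at 8.22, while 14 of 15 cortical epithelial markers lie left of 0.

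Genes of tissues outside the thymus rose by many lists. Trefoil and Reg proteins, which are secreted by the gut and pancreas, rose in 6 of 8 tested genes with a list median of 3.90. Over all rows 6.1% were called higher and the median was -0.02, and the counts of the islet, milk and liver lists stand against the same share. *Reg3g*, an antibacterial lectin, had 5.89 FPKM unstimulated and 99.0 and 172.9 FPKM with RANKL (log2 difference 4.45, SE 0.33, adjusted p = 7.71e-07 from limma), and *Reg3b* had 0.0535, 4.10 and 12.3 FPKM. Pancreatic hormones and islet antigens rose in 6 of 11. *Sst*, which encodes somatostatin, was listed at 0 and then had 2.86 and 6.85 FPKM, and *Pyy*, which encodes peptide YY, was listed at 0 and then had 2.41 and 10.4 FPKM. *Ins2*, which encodes insulin 2, was listed at 0 and had 0.302 and 0.773 FPKM, a level of few fragments, and *Gcg*, which encodes glucagon, was not called at 0.0336, 0.325 and 0.318 FPKM. Milk proteins rose in 2 of 4 tested genes, *Csn2* and *Csn1s2a* (0.0394, 1.28 and 1.15 FPKM), and 1 of the 8 listed, *Lalba*, was at 0 in all 3 libraries. Liver-secreted plasma proteins rose in 5 of 14. The called members included *Apoa1* (0.132, 6.35 and 8.94 FPKM) and *Apoa4* (0.0605, 3.52 and 4.87 FPKM), which encode apolipoproteins of the gut as well as the liver, while *Alb* stayed at or below 0.16 FPKM and was not tested and *Afp* had 0.194, 0.125 and 0.183 FPKM.

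Lists for cell types that mTECs are known to mimic gave unequal counts. In the neuroendocrine list 7 of 13 tested genes rose, in the microfold cell list 6 of 11 and in the secretory and intestinal list 7 of 13, against 6.1% of all rows. Beside *Insm1* and *Calcb*, the neuroendocrine genes that rose included *Npy*, which encodes neuropeptide Y, with 0.0877 FPKM unstimulated and 3.62 and 4.73 FPKM with RANKL (log2 difference 4.50, SE 0.49, adjusted p = 2.67e-05 from limma). *Chga*, which encodes chromogranin A, went the other way without being called, at 30.7, 20.8 and 15.1 FPKM (adjusted p = 0.199 from limma). Of the microfold cell genes, *Pglyrp1*, a peptidoglycan recognition protein, had 0.738, 15.4 and 20.3 FPKM (log2 difference 4.41), and *Gp2*, the uptake receptor of microfold cells, had 3.04, 7.51 and 9.70 FPKM (log2 difference 1.46, SE 0.37, adjusted p = 0.0274 from limma). The microfold list shares *Spib*, *Ccl20*, *Ccl9* and *Tnfrsf11b* with lists above. Of the secretory and intestinal genes, *Lypd8*, an antibacterial protein of the colon, was listed at 0 and then had 4.33 and 5.78 FPKM, and *Muc1* had 0.329, 3.54 and 2.77 FPKM. *Hnf4g*, a nuclear receptor of the gut, had 0.0459, 1.52 and 0.917 FPKM, while *Hnf4a* was too low to be tested.

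Tuft, keratinized, muscle and ciliated lists had fewer called members. In the tuft cell list 1 of 13 tested genes rose, *Gfi1b* (0.0242, 0.674 and 0.944 FPKM), a share of 7.69% that is near the 6.1% of all rows. Its defining factor *Pou2f3* had 0.664, 1.83 and 1.70 FPKM and was not called (adjusted p = 0.184 from limma). In keratinized epithelium 2 of 16 rose, *Dsg1a*, a desmosomal cadherin (0.371, 9.29 and 6.21 FPKM), and *Sprr1a*, a cornified envelope precursor (20.8, 51.4 and 96.8 FPKM), while *Ivl* had 0.392, 0.393 and 0.654 FPKM. In the skeletal muscle list 1 of 9 rose, *Tmem8c*, which encodes the fusion protein myomaker and was listed at 0 before 0.431 and 0.339 FPKM. None of 11 ciliated cell genes was called, with *Foxj1* at 2.17, 5.61 and 3.99 FPKM (adjusted p = 0.193 from limma).

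A total of 112 genes went from under 0.1 FPKM to at least 1 FPKM in both RANKL libraries, and 1 gene, *Fcrl5*, went from at least 1 to under 0.1 FPKM. All 112 were among the genes called higher, which the limits nearly fix, because they were set on the same 3 libraries as the test. Of the 112, 36 were listed at 0 without RANKL. Their median RANKL level was 2.61 FPKM. Those named here were picked after their values were seen. *Nkx2-6*, a homeobox factor of the embryonic pharynx and heart, had 0.0593 FPKM unstimulated and 10.9 and 10.3 FPKM with RANKL. *Hamp*, which encodes the liver hormone hepcidin, was listed at 0 and then had 3.24 and 3.51 FPKM. *Pgc*, which encodes a stomach pepsinogen, had 0.0334, 2.14 and 3.63 FPKM, and *Cnga2*, a channel subunit of olfactory neurons, had 0.0556, 2.31 and 3.15 FPKM. *Myot*, which encodes the sarcomere protein myotilin, had 0.0295, 1.62 and 2.14 FPKM. *Runx3*, a transcription factor of lymphocytes and epithelia, had 0.0871, 3.76 and 4.80 FPKM, and *Tnfrsf9*, which encodes 4-1BB, had 0.0374, 3.33 and 3.44 FPKM, so that this receptor and its ligand *Tnfsf9* were both higher with RANKL. In the *Jmjd6*-/- libraries 48 of the 112 reached 1 FPKM in both RANKL libraries, 4 in one of them and 60 in neither. The 112 were chosen by this limit in WT and not in *Jmjd6*-/- stroma, so that the counts hold the selection. In the unstimulated *Jmjd6*-/- library 85 of the 112 were under 0.1 FPKM. The difference between the genotypes in these counts was not tested.

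Some of the most abundant transcripts of the stroma were among the genes called, and those named here were chosen after their values were seen. *Fabp5*, a fatty acid binding protein of epithelium, had 410 FPKM unstimulated and 1314 and 1295 FPKM with RANKL. *Srgn*, which encodes the granule proteoglycan serglycin, had 5.51, 379 and 370 FPKM (log2 difference 6.06, SE 0.28, adjusted p = 5.55e-09 from limma). *Ubd*, which encodes the ubiquitin-like protein FAT10, had 2.60, 123 and 203 FPKM (log2 difference 5.87). The RANKL libraries lay several-fold above the unstimulated one in each of the 3. In the other direction, *Cdh8*, a cadherin, had 249, 104 and 78.3 FPKM, *Sepp1*, which encodes the selenium carrier selenoprotein P, had 166, 57.98 and 82.7 FPKM, and *Txnip*, a brake on glucose uptake, had 91.8, 39.2 and 23.95 FPKM. Each of these 3 lay lower in both RANKL libraries.

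Interferon-response genes lay on one side. All 19 lay above the unstimulated value in both RANKL libraries, as did 35.3% of all rows. Of the 19, 11 were called higher, against 6.1% of all rows. *Mx1*, a GTPase against RNA viruses, had 2.86 FPKM unstimulated and 27.0 and 35.9 FPKM with RANKL (log2 difference 3.40, SE 0.32, adjusted p = 6.78e-06 from limma). *Isg15*, a ubiquitin-like modifier, began high at 260 FPKM and reached 575 and 790 FPKM, and *Ifit3* had 60.1, 191 and 259 FPKM.

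Cell cycle genes also lay on one side, by small differences. All 24 lay above the unstimulated level in both RANKL libraries, as did 35.3% of all rows, with log2 differences between 0.26 and 1.37. The test called 4 of them higher, against 6.1% of all rows. *Birc5*, which encodes survivin, had 13.6 FPKM unstimulated and 36.8 and 33.8 FPKM with RANKL (log2 difference 1.37, SE 0.28, adjusted p = 0.00708 from limma), and *Cdc20*, *Plk1* and *Rrm2* had log2 differences of 1.25, 1.14 and 1.12. *Mki67*, a proliferation marker, had 7.97, 23.2 and 11.4 FPKM, so its replicates were uneven and it was not called (adjusted p = 0.183 from limma). None of the 13 immediate early and heat shock genes was called, in either direction. *Fos* had 3.11, 3.33 and 4.73 FPKM and *Hspa1a* 6.12, 5.94 and 5.87 FPKM.

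Of 14 genes of hypoxia and glycolysis 6 rose and none fell, against 6.1% and 0.305% of all rows. The matrix counts below stand against the same shares. *Ldha*, the lactate dehydrogenase, had 75.6 FPKM unstimulated and 224 and 260 FPKM with RANKL (log2 difference 1.67, SE 0.29, adjusted p = 0.00198 from limma), *Pgk1*, a kinase of glycolysis, had 101, 216 and 270 FPKM and *Adm*, which encodes adrenomedullin, had 11.8, 31.2 and 38.4 FPKM. *Slc2a1*, the glucose transporter, had 22.3, 25.5 and 30.004 FPKM and was not called. In extracellular matrix and its remodelling 3 of 18 rose, the collagenase *Mmp13* (1.55, 8.42 and 21.1 FPKM), the gelatinase *Mmp9* (13.8, 48.3 and 54.1 FPKM) and their inhibitor *Timp1* (3.52, 8.44 and 21.8 FPKM). The other 15 were not called, among them the fibrillar collagen *Col1a1* at 68.1, 60.2 and 55.8 FPKM. Of the 18, 8 lay below the unstimulated value in both RANKL libraries, as did 35.5% of all rows.

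The labelled tissue held both kinds of thymic epithelium. Medullary markers rose in 7 of 11 tested genes, 5 of which are described above. Over all rows 6.1% were called higher and 0.305% lower. *Krt14*, a basal keratin whose promoter is shown above, had 2.98 FPKM unstimulated and 15.4 and 23.5 FPKM with RANKL (log2 difference 2.63, SE 0.35, adjusted p = 0.000192 from limma), and *Cldn4*, a tight junction claudin of mTECs, had 9.46, 18.03 and 27.2 FPKM. *Krt5*, the other basal keratin of the list, was not called at a log2 difference of -0.35, and *Epcam*, an adhesion molecule of all thymic epithelium, had 168, 209 and 202 FPKM. Of 15 cortical markers 14 lay below the unstimulated value in both RANKL libraries, as did 35.5% of all rows. *Psmb11*, the thymoproteasome subunit, had 440, 243 and 300 FPKM (log2 difference -0.70, SE 0.32, adjusted p = 0.317 from limma), and *Dll4*, the Notch ligand that commits T cells, had 142, 98.1 and 111 FPKM. *Enpep*, an aminopeptidase of cortical epithelium, was the only cortical marker called, at 107, 49.9 and 50.1 FPKM (log2 difference -1.10, SE 0.27, adjusted p = 0.0231 from limma). *Foxn1*, the master factor of thymic epithelium, had 89.5, 80.8 and 103 FPKM and lay on both sides.

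Markers of other cells were checked for the same libraries, where 6.1% of all rows were called higher and 0.305% lower. T cell markers were at or near 0, with 4 of 12 high enough to be tested, none called, *Cd3e* and *Rag2* at 0 in all 3 libraries and sums of 1.20, 2.82 and 4.21 FPKM over the list. B cell markers summed to 6.50, 21.0 and 23.8 FPKM with *Pax5* at 0, and the 1 of 4 called was *Blnk*, an adaptor also used outside B cells (1.43, 14.3 and 18.8 FPKM). Dendritic cell markers summed to 1.92, 4.26 and 5.59 FPKM with *Siglech* at 0, and *Itgax* was called higher among 4 tested. Macrophage markers summed to 442, 314 and 503 FPKM. Among 10 tested, *Mrc1*, the mannose receptor, rose (4.93, 15.3 and 15.8 FPKM), and *Timd4*, a receptor for dying cells on resident macrophages, fell (6.78, 0.714 and 2.32 FPKM). Osteoclast markers summed to 107, 148 and 169 FPKM. In bone, RANKL drives the formation of these cells, and here *Mmp9* and *Atp6v0d2*, a proton pump subunit (1.38, 6.67 and 10.002 FPKM), rose, while *Acp5* had 12.5, 7.73 and 11.3 FPKM and *Nfatc1* 14.05, 12.04 and 15.2 FPKM.

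Mast cell and neutrophil genes stood out among the markers of blood cells. The counts below stand against 6.1% of all rows called higher and 0.305% called lower. Mast cell markers summed to 5.73, 41.7 and 29.6 FPKM, and 3 of 8 tested rose, the proteases *Mcpt1* (0.0316, 8.56 and 4.38 FPKM) and *Mcpt2* (0.0331, 6.36 and 2.35 FPKM) and the histamine-forming *Hdc* (1.34, 17.0 and 16.2 FPKM). All 8 lay above the unstimulated value in both RANKL libraries, as did 35.3% of all rows. Of the 8, 5 were at least 2-fold higher in both, as were 9.98% of all rows. The mast cell protease *Cpa3* and the receptor *Kit* were not called, with *Cpa3* at 0.395, 0.908 and 0.423 FPKM and *Kit* at 3.20, 4.55 and 4.11 FPKM. Neutrophil markers summed to 7.10, 119.5 and 186.4 FPKM, most of it *S100a8* in the RANKL libraries, and 5 of 8 tested rose. *S100a9*, the partner of S100a8, had 1.34, 10.4 and 25.5 FPKM, and *Ngp* and *Mpo*, which encode granule proteins, were listed at 0 and then had 1.27 and 2.03 FPKM and 1.20 and 1.40 FPKM. *Elane* reached at most 0.0643 FPKM. *S100a8* is also a gene of epithelium, and the part of blood cells in these values was not tested. Of 11 endothelial markers 7 were lower in both RANKL libraries, as were 35.5% of all rows, and none was called (sums of 45.5, 24.2 and 35.7 FPKM), with *Cdh5* at 9.48, 3.78 and 4.20 FPKM (adjusted p = 0.0707 from limma) and *Pecam1* at 7.71, 4.05 and 4.83 FPKM. None of 12 mesenchymal markers was called (sums of 531, 622 and 609 FPKM), with *Pdgfra* at 11.4, 20.1 and 8.65 FPKM. The 3 parathyroid markers were not called, with *Pth*, the parathyroid hormone, at 58.8, 33.8 and 27.9 FPKM, and of 5 erythroid markers *Alas2*, an enzyme of haem synthesis, rose (0.132, 1.51 and 1.51 FPKM).

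In the main fit far fewer genes were called lower than higher, 49 against 979, and these numbers changed with the setting. Without a threshold the directions were even, with 35.3% of all rows above and 35.5% below the unstimulated value in both RANKL libraries. Among the genes called lower with a WT mean of at least 1 FPKM the largest fall was that of *Defb4*, a defensin. It had 6.14 FPKM unstimulated and 0.475 and 1.39 FPKM with RANKL (log2 difference -2.75, SE 0.56, adjusted p = 0.00669 from limma). *Krt72*, a keratin of the hair root sheath, had 4.18, 0.443 and 0.671 FPKM, and *Asb2*, a subunit of ubiquitin ligases, had 4.52, 0.542 and 0.761 FPKM. *Atp6v1b1*, a proton pump subunit of kidney and ear, had 4.25, 0.753 and 0.585 FPKM, and thus fell while *Atp6v0d2* rose. *Cyp2g1*, an olfactory cytochrome P450, had 21.2, 2.54 and 5.21 FPKM. Its neighbours on chromosome 7 are related in sequence, so that reads may be shared. They fell as well, with *Cyp2a5* at 28.1, 6.601 and 10.7 FPKM and *Cyp2f2* at 16.2, 5.51 and 5.78 FPKM, both chosen after their values were seen. *Fpr1*, a receptor for bacterial formyl peptides, had 6.05, 1.29 and 0.788 FPKM. *Esm1*, which is secreted by endothelium, had 18.6, 3.54 and 6.64 FPKM, and *Slc16a11*, a monocarboxylate transporter, had 22.5, 3.53 and 6.70 FPKM. *8430408G22Rik* was the most abundant of the 12, with 36.2, 5.63 and 7.51 FPKM (log2 difference -2.46, SE 0.33, adjusted p = 0.000197 from limma). *2300002M23Rik* and *Svopl* completed the 12 with log2 differences of -2.19 and -2.19. In each of the 12 both RANKL libraries lay below the unstimulated one, which their choice by these same values nearly fixes.

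The *Jmjd6*-/- libraries did not enter the fit and showed most of the same directions. Of the 979 genes that rose in WT stroma, 660 (67.4%) were at least 2-fold higher in both *Jmjd6*-/- RANKL libraries than in the unstimulated *Jmjd6*-/- library, as were 6.85% of all rows tested. Of the 49 that fell, 31 (63.3%) were at least 2-fold lower, as were 1.42% of all rows. The median log2 difference of the genes that rose was 2.57 in WT, where they were chosen, and 1.69 in *Jmjd6*-/- stroma, where they were not, so that the WT value holds the selection. *Aire* had 0.473 FPKM unstimulated and 75.1 and 67.1 FPKM with RANKL in *Jmjd6*-/- stroma, *Tnfrsf11a* 2.41, 16.1 and 13.7 FPKM and *S100a8* 0.268, 58.5 and 65.5 FPKM.

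No response was called different between the genotypes. In a fit of all 6 libraries by limma the adjusted p of the difference of the responses was at least 0.707, with 0 rows past the threshold in either direction (0%). Of the 16049 rows, 572 and 117 had an unadjusted p under 0.05 with a larger and a smaller response in WT. Rows were kept by their mean over the WT libraries only. Genes expressed only in *Jmjd6*-/- stroma were thus left out, and the split by direction holds this choice. A share of 0.05 of the rows is expected under that limit without any difference. The lowest p-values among genes of at least 1 FPKM belonged to *Iapp*, *Fabp6*, *Gng13*, *Prap1* and *Krt20*. *Iapp* had 0.241, 8.67 and 8.07 FPKM in *Jmjd6*-/- stroma, and its log2 response was larger in WT by 2.98 (SE 0.32, adjusted p = 0.707 from limma). *Fabp6*, an ileal bile acid binding protein, rose from 0.163 to 15.9 and 15.3 FPKM in WT and had 0.316, 2.77 and 2.34 FPKM in *Jmjd6*-/- stroma. *Krt20*, an intestinal keratin, had 0.0172, 3.99 and 4.22 FPKM in WT and 0.372, 1.53 and 1.67 FPKM in *Jmjd6*-/- stroma. *Gng13*, a G protein subunit of taste and tuft cells, began at 1.296 FPKM in WT and 5.50 FPKM in *Jmjd6*-/- stroma and had 10.7 and 10.7 FPKM with RANKL in WT and 9.21 and 9.05 FPKM in *Jmjd6*-/- stroma. *Prap1*, an acidic protein of gut and uterus, was listed at 0 in WT and then had 1.52 and 2.59 FPKM.

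**Figure D4:**
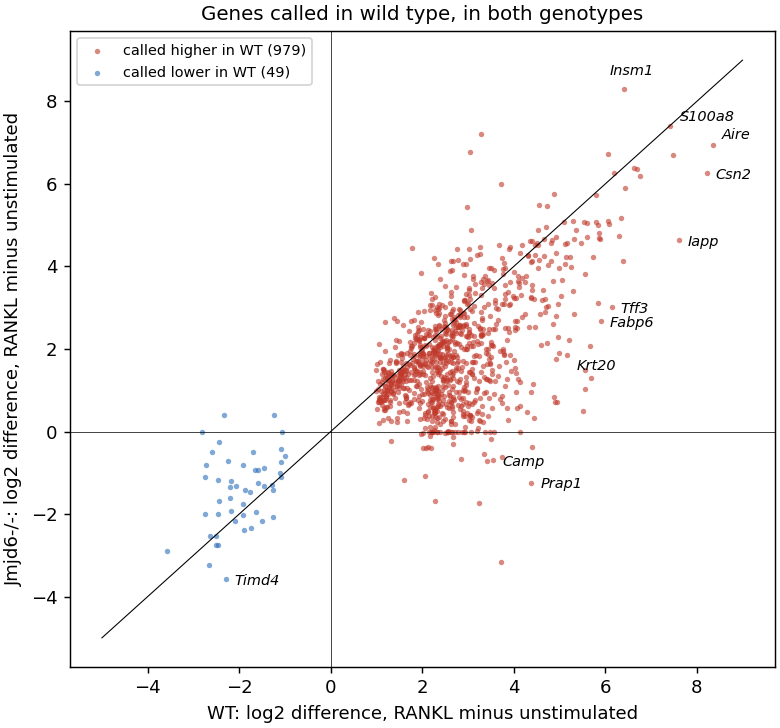
Log2 difference of FPKM + 0.1 with RANKL in WT stroma (x axis) and in *Jmjd6*-/- stroma (y axis) for the 979 genes called higher (red) and the 49 called lower (blue) in WT, with the line of equal values. Most points share a direction, *Aire* and *S100a8* lie far up in both genotypes, and *Prap1* and *Camp* lie below 0 on the y axis.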

How the data were processed

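RNA of fetal thymus stroma was sequenced after culture, and the authors deposited 1 table of FPKM values per gene for all 6 libraries, made from reads aligned to mm10 with TopHat 2.0.10 and quantified with Cufflinks 2.1.1. Cufflinks was run with multi-read correction and a stranded library setting. FPKM values are scaled to the mapped fragments of each library, so depth had to be estimated and no count test could be used. The values of the 3 WT libraries were compared as log2(FPKM + 0.1) with limma 3.58.1 in R 4.3.3 (2 RANKL libraries against 1 unstimulated, 1 residual degree of freedom, mean-variance trend, Benjamini-Hochberg adjustment over all 16049 rows, threshold 0.05). The groups came from the sample labels. The response of *Jmjd6*-/- stroma was set beside it in a fit of 4 group means. The fold rule asked for 2-fold in both RANKL libraries. The code was tested on simulated data. The genes named were the 15 largest rises and 12 largest falls of genes whose WT mean reached 1 FPKM, the largest called and the first members of each list, and the 5 lowest p-values between genotypes. Other genes were picked after their values were seen. The members and the lists were chosen with earlier results of these data known. Of the 476 genes of the 36 lists 472 were found in the table. Promoter sequences came from RefSeq (GRCm38.p6). Alternatives changed the constant, filter, scaling, trend, libraries and composition correction. Entries naming more than 1 gene (115 of those tested) stayed in.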

Additional observations from a re-analysis of the deposited data

Results flagged for a closer look

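The responses of 3 named genes that were called in WT stroma pointed in opposite directions in the genotypes, with both RANKL libraries above the unstimulated one in WT stroma and both below it in *Jmjd6*-/- stroma. Of 191 named genes looked at, 9 lay on opposite sides in the genotypes, in one order or the other, and the 3 given here are those called in WT stroma. In none of the 3 did the limma test of the difference pass, and the share of such genes over all rows was not counted. In *Jmjd6*-/- stroma *Prap1* and *Camp* had at most 0.318 FPKM in every library. That is a level of few fragments, so their directions there are imprecise. *Prap1*, a secreted protein of gut and uterus, was listed at 0 and then had 1.52 and 2.59 FPKM in WT, against 0.136 FPKM and then 0 in both RANKL libraries in *Jmjd6*-/- stroma. The WT response was larger by 5.62 on the log2 scale (SE 0.64, adjusted p = 0.707 from limma). *Camp*, which encodes the antimicrobial peptide of neutrophils and epithelium, was listed at 0 and then had 0.634 and 1.76 FPKM in WT and had 0.318, 0.19 and 0.129 FPKM in *Jmjd6*-/- stroma (4.25 larger, SE 0.88, adjusted p = 0.74 from limma). *Trf*, which encodes transferrin, had 7.82, 16.5 and 23.6 FPKM in WT and 11.2, 9.62 and 9.61 FPKM in *Jmjd6*-/- stroma (1.54 larger, SE 0.34, adjusted p = 0.785 from limma). No group holds enough libraries for a check of single outlying libraries.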

How the results depend on the processing

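The unstimulated state rests on 1 library, RANKL replicate 2 differs by GC content, and genes of a few fragments per library are imprecise. The number called higher stayed between 672 and 1151 in all settings but 2, no filter on low values and leaving out replicate 1. Without the filter on low values, 2 rows were called higher and 131 lower, with 0.794 prior degrees of freedom of the spread in place of 13.4. The number called lower was 75 with a filter at 1 FPKM, 89 with 4 group means over 6 libraries and 289 with the GC and length trend taken out. Leaving out a RANKL replicate gave 672 to 2279 called higher and 198 to 2198 lower. At least 2-fold in both libraries were 588 higher and 39 lower with 1 added to FPKM, 933 and 36 at 3-fold, 197 lower without the GC and length trend, and 2087 to 2171 higher and 316 to 503 lower without a replicate. Genes going from off to on were 130 to 175 without a replicate and 235 at a limit of 0.3 FPKM, and those going off 2 to 6 and 5. The difference between genotypes gave 2 rows smaller in WT without *Jmjd6*-/- replicate 1, 1 larger and 4 smaller without replicate 2, and 0 in either direction without either WT replicate. The causes were not tested. Of 131 named genes called, none changed direction in any setting. Many of them were named for large differences in the same libraries, so a change of direction was hardly possible. Between 82 and 131 remained called, except that 2 did so without the filter and 114 of 114 with the filter at 1 FPKM. No paired analysis was possible because the unstimulated WT group is 1 library, so that the groups share fewer than 2 replicate numbers.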

Other observations

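Counts for further gene groups are given here. Their lists were written after the values were seen, so the counts describe and do not test, and some members, such as *S100a8* and the *Reg* genes, belong to lists above. Over all rows 6.1% were called higher and 35.3% lay above the unstimulated value in both RANKL libraries. Of 24 genes of cholesterol synthesis and uptake 19 were called higher and all 24 lay above the unstimulated value in both RANKL libraries. *Idi1*, an isomerase of the mevalonate pathway, had 12.2 FPKM unstimulated and 86.1 and 75.8 FPKM with RANKL, and *Fdps*, which makes farnesyl diphosphate, had 21.98, 98.4 and 137 FPKM. *Mvk*, *Sqle*, *Hsd17b7*, *Ebp* and *Srebf2* were not called. Of 13 genes of fatty acid synthesis and desaturation 6 were called higher, among them the desaturase *Scd1* (5.09, 47.4 and 30.04 FPKM). Of 15 genes of the amino acid stress response 5 were called higher, and *Fgf21*, a metabolic hormone, had 4.57, 92.4 and 93.5 FPKM (log2 difference 4.32, adjusted p = 2.12e-07 from limma).

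Skint proteins are butyrophilin-like molecules of thymic epithelium and skin, and *Skint1* is known to select an epidermal γδ T cell. Of 9 tested *Skint* genes 8 were called higher with a median log2 difference of 3.46, against 6.1% and -0.02 over all rows. *Skint1* had 0.274, 23.5 and 19.5 FPKM, and *Skint10* had 1.48, 101 and 83.2 FPKM. The genes are alike in sequence, so reads may be split among them. They lie as a run of 8 neighbouring called rows, the longest of 35 runs of 3 or more, which together hold 129 genes. Other runs held 6 *Ly6* genes on chromosome 15, 6 *S100a* genes on chromosome 3, 6 guanylate-binding protein genes on chromosome 5 and 4 *Reg* genes on chromosome 6. Of all 14 *S100a* genes 9 and of all 10 guanylate-binding protein genes 8 were called higher.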
